A study of Mus musculus with 20 samples.

Results

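Cells of the MEIS2 libraries were ranked by how much Meis2 RNA they held, and the rank was used to compare Meis2-rich with Meis2-poor cells of the same library. The libraries came from retinal explants of wildtype CD1 mice that carried a pCAGIG plasmid, in which the broadly active CAG promoter drives the inserted gene and, from the same transcript, GFP. The groups used were P2 MEIS2 with 2 libraries, P5 MEIS2 with 2 libraries, and as reference P2 GFP and P5 GFP, the empty plasmid, with 4 libraries each. P2 and P5 are postnatal days 2 and 5 in the sample labels, whereas the series design text gives 2 or 5 days of treatment and names NR2F1 and NR2F2 constructs where titles name MEIS factors. All groups went through electroporation, explant culture and sorting for GFP before 10x 3′ sequencing, and no library of untreated cells was part of these groups.

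Within each library, cells that the authors had called Progenitors or Neurogenics and that held at least 1000 UMIs (unique molecular identifiers, 1 per captured RNA molecule) were ordered by Meis2 UMIs divided by all UMIs. Each ranking was cut into 3 equal parts. The members were chosen by this share alone, with cells of equal share put in random order. The highest part is the Meis2-rich set of that library and cell type and the lowest part the Meis2-poor set. Counts were summed over the cells of a set. This gave 1136 cells in sets out of 1710 cells that passed the depth minimum, in a series of 79009 cells of which 21057 were progenitors or neurogenic cells. Progenitor sets held 107 cells each in P2 MEIS2 1, 77 in P2 MEIS2 2, 20 in P5 MEIS2 1 and 63 in P5 MEIS2 2. Neurogenic sets held 114, 42, 37 and 108 cells in the same order. The same split of the GFP libraries gave 8312 cells in sets out of 12482. It served as the reference for endogenous Meis2 and for depth, with a limit. In progenitors of the GFP libraries 36.4% to 73.5% of cells had no Meis2 UMI. Their poor sets were therefore random draws among such cells, unlike the ranked poor sets of most MEIS2 libraries.

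MEIS2 is a homeodomain transcription factor of the TALE class, which binds DNA with PBX partners and is known in the developing eye from progenitors and, later, from amacrine and ganglion cells. Retinal progenitors divide, and those that leave the cell cycle to form neurons pass through a neurogenic state, marked by proneural factors. They then become rods, amacrine cells or bipolar cells. Genes of G2 and mitosis are switched on together late in the cell cycle, and many of their promoters carry CCAAT boxes, bound by NF-Y, or the cell cycle homology element, bound by MuvB complexes. The Meis2 gene lies on the minus strand of chromosome 2 at 115863064 to 116065839 (mm10, GENCODE vM21). The table names a single Meis2 row, so that plasmid and endogenous transcripts cannot be told apart in it.

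Progenitor and neurogenic markers separated the authors' Progenitors from their Neurogenics in the MEIS2 libraries, whereas glial markers did not separate Progenitors from Müller Glia. Progenitor markers summed to 4749 CPM (counts scaled to a common total, the usual unit for summed UMIs) in Progenitors and 2470 in Neurogenics, and neurogenic markers to 2188 and 6368. Markers of Müller glia, a type that shares many genes with late progenitors, summed to 5143 CPM in Progenitors and 4606 in the 27 cells called Muller Glia, and in the GFP libraries to 4634 and 6275. The pooled value hides a gap between ages: in the rich and poor progenitor sets of the MEIS2 libraries these markers summed to 772 to 2237 CPM at P2 and 7939 to 9972 at P5. Depth differed between libraries. The median progenitor held 21034, 21424 and 26381 UMIs in P2 MEIS2 1, P5 MEIS2 1 and P5 MEIS2 2, but 1554 in P2 MEIS2 2, where 187 of 419 progenitors and 124 of 250 neurogenic cells fell below 1000 UMIs. Across the GFP libraries the median progenitor held from 5517 to 24170 UMIs. No more than 2 barcodes were shared between the members of any pair of libraries. The cell barcodes of P2 GFP 1 began with the name of a combination library, those of P2 GFP 2 to 4 and P5 GFP 1 to 4 with another number of their group, and those of the MEIS2 libraries with their own name. The treatment tag names MEIS1 for the P2 MEIS2 libraries, and titles were followed. Nothing in the labels says that libraries of a group came from separate animals, so p-values measure the spread between these libraries.

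Meis2 chose the sets, so its levels are a description. In progenitors the rich and the poor set held 1825 and 167 CPM in P2 MEIS2 1, 3127 and 352 CPM in P2 MEIS2 2, 1944 and 147 CPM in P5 MEIS2 1, and 2175 and 163 CPM in P5 MEIS2 2. In the reference libraries the rich progenitors held 102 to 468 CPM with a median of 198, and no poor progenitor had a Meis2 UMI. Poor progenitors of the MEIS2 libraries were not free of Meis2 UMIs: 83.2% of them had a Meis2 UMI in P2 MEIS2 1, 41.6% in P2 MEIS2 2, 100% in P5 MEIS2 1 and 93.7% in P5 MEIS2 2. How many of these UMIs came from RNA outside the cell was not estimated. In 3 GFP libraries the rich set of progenitors had to be filled with cells without a Meis2 UMI, 20.4% of it in P2 GFP 3, 15.6% in P5 GFP 3 and 4.90% in P2 GFP 4.

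The step at the edges of the sets was small. In progenitors of P2 MEIS2 1 the highest poor cell had a Meis2 level of 353 CPM and the lowest cell left out 357, while the highest cell left out held 848 and the lowest rich cell 849. The same pairs were 929 and 936, then 2000 and 2013, in P2 MEIS2 2. They were 223 and 225, then 602 and 642, in P5 MEIS2 1, and 326 and 341, then 834 and 909, in P5 MEIS2 2. Neighbouring cells across an edge thus differed little, and the contrast rests on the ends of each ranking.

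Neurogenic cells were split in the same way. Rich and poor sets held 3675 and 466 Meis2 CPM in P2 MEIS2 1, 3371 and 331 in P2 MEIS2 2, 1739 and 135 in P5 MEIS2 1, and 1502 and 84.1 in P5 MEIS2 2. Rich neurogenic cells of the GFP libraries held 290 to 1360 CPM with a median of 874, and the poor ones 0 to 22.7. In neurogenic cells the highest reference value, 1360, thus lay just below the lowest MEIS2 value, 1502, while in progenitors the highest reference value of 468 lay below all 4 MEIS2 values.

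GFP, which the MEIS2 plasmid carries on the same transcript as Meis2, moved with Meis2 in the MEIS2 libraries. Its counts were not used to rank the cells, but the direction of this step was set by the construct. The empty plasmid holds no such link, so the test below is a check of the construct and the ranking. In progenitors its level in the rich and the poor set was 16047 and 2163 CPM in P2 MEIS2 1, 4004 and 2486 in P2 MEIS2 2, 16950 and 1903 in P5 MEIS2 1, and 12021 and 1020 in P5 MEIS2 2. With the GFP construct it was 9905 to 38672 CPM in rich progenitors, with a median of 11326, and 10675 to 43159 in poor ones, with a median of 15930. The rich set was higher in 4 of 4 MEIS2 libraries and in 2 of 8 GFP libraries, and rich and poor sets of the MEIS2 libraries did not overlap. The mean log2 ratio of rich to poor was 2.57 ± 1.29 (SD, n = 4) against -0.26 ± 0.30 (SD, n = 8), a difference of 2.83 with a two-sided exact permutation p of 0.00202, the smallest that 495 splits of 12 libraries allow, and 0.00606 after Benjamini-Hochberg adjustment over 6 comparisons.

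Neurogenic cells gave the same order. GFP stood at 17073 and 3781 CPM in rich and poor cells of P2 MEIS2 1, 3047 and 2300 in P2 MEIS2 2, 9460 and 1878 in P5 MEIS2 1, and 5852 and 652 in P5 MEIS2 2. Among GFP libraries it ranged from 4415 to 45034 CPM in rich cells and from 7619 to 46341 in poor ones, with medians of 13109 and 12674. The mean log2 ratio was 2.02 ± 1.16 (SD, n = 4) against -0.30 ± 0.32 (SD, n = 8), and the difference of 2.32 had an exact permutation p of 0.00202, adjusted 0.00606. Across single progenitors, Spearman's rho between the Meis2 and the GFP share was 0.816 over 321 cells of P2 MEIS2 1, 0.284 over 232 of P2 MEIS2 2, 0.777 over 62 of P5 MEIS2 1 and 0.907 over 191 of P5 MEIS2 2. In progenitors of the GFP libraries rho lay between -0.097 and -0.012. Across single neurogenic cells it was 0.643 in P2 MEIS2 1, 0.082 in P2 MEIS2 2, 0.380 in P5 MEIS2 1 and 0.733 in P5 MEIS2 2, and -0.084 to 0.090 in the GFP libraries, a range that holds the value of P2 MEIS2 2. These correlations are descriptions, since both shares of a cell have the same UMI total below them. The shallow library P2 MEIS2 2 had both the smallest GFP step and the weakest correlation.

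**Figure D1:**
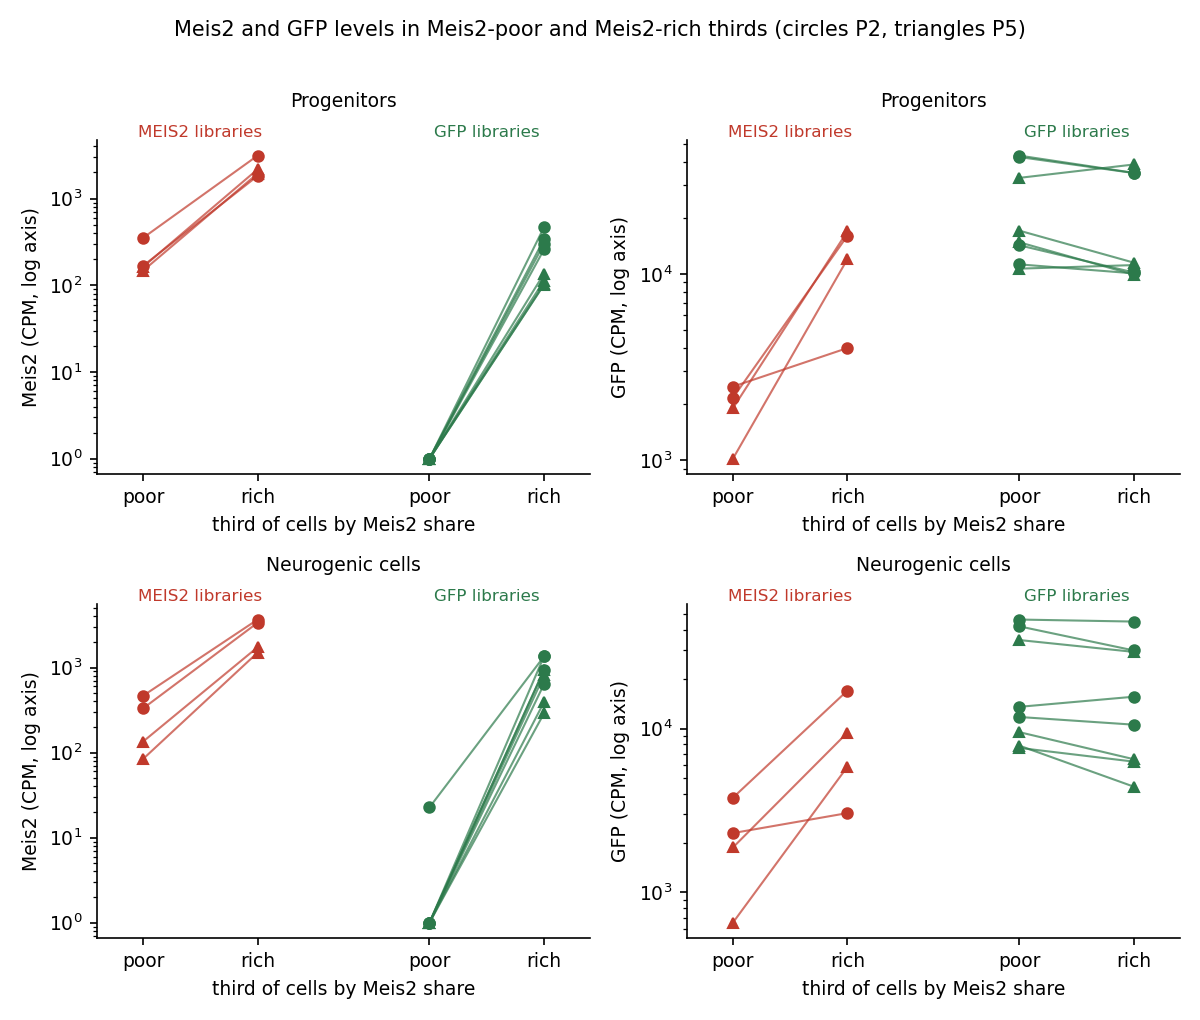
Level of Meis2 (left) and of the GFP transcript (right) in CPM on log axes, in progenitors (top) and neurogenic cells (bottom), with 1 line per library joining its Meis2-poor and its Meis2-rich set; circles are P2 and triangles P5, red the 4 MEIS2 and green the 8 GFP libraries, and sets without a Meis2 UMI are drawn at 1. GFP rises from poor to rich in 4 of 4 MEIS2 libraries in both cell types and in 2 of 8 GFP libraries in progenitors.

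Depth and mitochondrial RNA did not pass a test of the difference between constructs. Rich and poor progenitors had median depths of 21826 and 20969 UMIs in P2 MEIS2 1, 1652 and 1271 in P2 MEIS2 2, 23424 and 19551 in P5 MEIS2 1, and 26941 and 25271 in P5 MEIS2 2. Rich cells were the deeper ones in 4 of 4 MEIS2 libraries and in 6 of 8 GFP libraries. The log2 ratio of rich to poor depth exceeded that of the GFP libraries by 0.082 in progenitors (exact permutation p = 0.465, adjusted 0.558) and by 0.066 in neurogenic cells (exact permutation p = 0.560). The mitochondrial percent of rich less poor cells differed from that of the GFP libraries by -0.20 points in progenitors (exact permutation p = 0.418) and by -0.18 points in neurogenic cells (exact permutation p = 0.244). In rich progenitors the mitochondrial percent was the lower one in 4 of 4 MEIS2 libraries and the higher one in only 2 of 8 GFP libraries. The mean of rich less poor was thus negative with both constructs. It was -0.17 points in the GFP libraries (exact sign-flip p = 0.0391, not adjusted) and -0.36 in the MEIS2 libraries (exact sign-flip p = 0.125, the smallest that 4 libraries allow).

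In progenitors, Meis2-rich cells of the MEIS2 libraries had less RNA from genes of G2 and mitosis than Meis2-poor cells, by more than in the GFP libraries. Counts of the sets were fitted across all 11756 genes that passed the filter with edgeR's quasi-likelihood test, with the library as a block. MEIS2 and GFP libraries were in the same fit and shared its estimate of the spread. A gene was called where its p, adjusted by Benjamini and Hochberg, was under 0.05. In the MEIS2 libraries 374 genes were called, 3.18% of those tested, 128 of them higher in rich cells (1.09%) and 246 lower (2.09%). A fit of the MEIS2 libraries alone called fewer genes, as given with the other alternatives. Of the called genes named in the text and still tested there, 23 kept their call and 15 lost it. The difference between the rich-minus-poor value of the MEIS2 and of the GFP libraries was called for 224 genes, 1.91% of those tested, with 74 positive (0.629%) and 150 negative (1.28%). Of the 30 genes of a G2 and mitosis list, all tested, 28 fell in the MEIS2 libraries, with a median log2 fold change of -2.11 beside 0.00 over all genes. For 27 of the 30 the fall was larger than in the GFP libraries, with a median difference of -1.86 beside 0.01 over all genes. Across the GFP libraries, where 724 genes were called (6.16%, with 3.22% higher and 2.94% lower), 0 of the 30 were called by edgeR and by DESeq2, 8 had an unadjusted p under 0.05 by edgeR, and the median was -0.18. Without the cells that Scrublet called doublets, 616 of them progenitors or neurogenic cells of P2 GFP 1, the GFP libraries called 48 genes in place of 724. Of the 30 they then called 0 by edgeR, with 0 at an unadjusted p under 0.05 and a median of -0.06, while 29 fell in the MEIS2 libraries and 29 were called for the difference.

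Summed over the list, the level in rich and poor progenitors was 1724 and 6113 CPM in P2 MEIS2 1, 531 and 879 in P2 MEIS2 2, 178 and 804 in P5 MEIS2 1, and 216 and 1035 in P5 MEIS2 2. The rich set was the lower one in each library, and the P2 MEIS2 1 cells had the highest level in both sets. In the reference libraries the summed level ran from 334 to 7840 CPM in rich progenitors, with a median of 2713, and from 267 to 8362 in poor ones, with a median of 2529, and the rich set was higher in 5 of 8. The UMIs behind these sums were 3760 and 12896 in P2 MEIS2 1 but 97 and 110 in P2 MEIS2 2 and 79 and 306 in P5 MEIS2 1, and 349 and 1639 in P5 MEIS2 2. In the rich set of P5 MEIS2 1, 17 of the 30 genes had no UMI, against 2 in its poor set.

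Seen by cell, progenitors with at least 1000 CPM of the list made up 20.6% of rich and 47.7% of poor cells in P2 MEIS2 1, 7.79% and 11.7% in P2 MEIS2 2, 0% and 15% in P5 MEIS2 1, and 0% and 9.52% in P5 MEIS2 2. At the median depth of P2 MEIS2 2 this level is reached with 2 UMIs of the list, and its poor cells were the shallower ones, so its shares are not compared. With the GFP construct the share was 3.23% to 53.5% in rich and 2.17% to 54.5% in poor progenitors, lower in the rich set in 3 of 8 libraries and equal in 1.

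**Figure D2:**
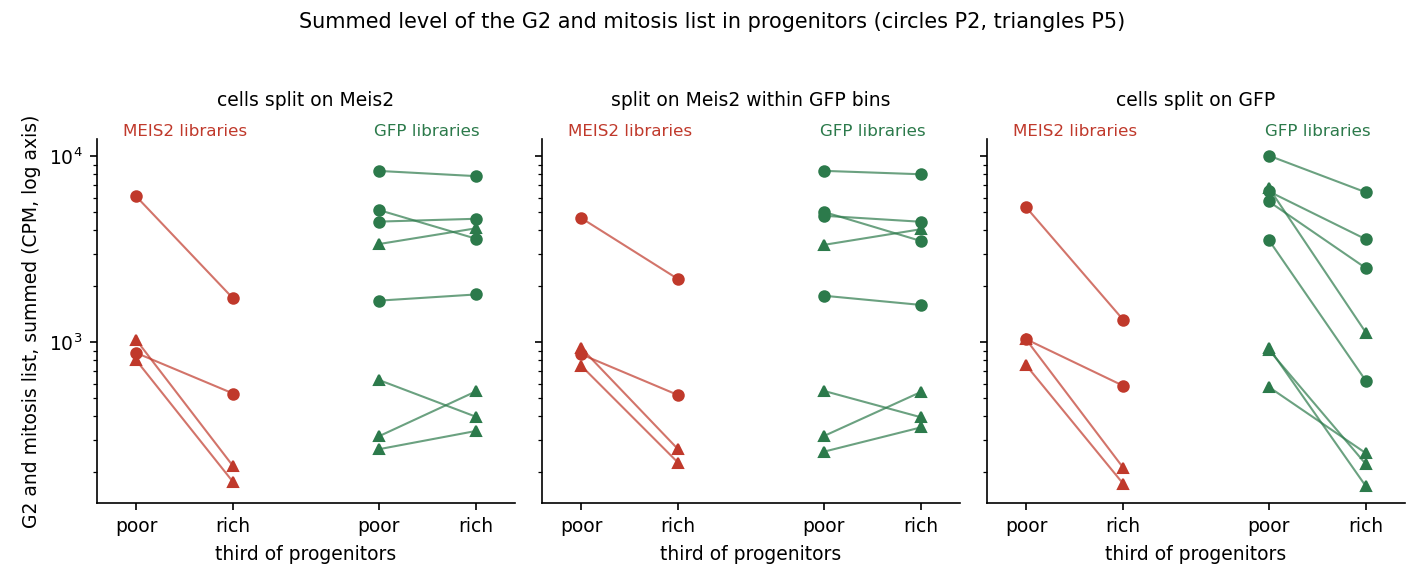
Summed level of 30 G2 and mitosis genes in progenitors, in CPM on a log axis, with 1 line per library from the poor to the rich set; red is MEIS2, green GFP, circles P2 and triangles P5. Left, cells ranked by Meis2; middle, ranked by Meis2 within 3 bins of GFP level; right, ranked by GFP. With cells ranked by Meis2 the 4 MEIS2 lines fall while 5 of 8 GFP lines rise; with cells ranked by GFP all 12 lines fall.

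Members of the list with different jobs in division fell together. Ccnb1, the B-type cyclin that drives entry into mitosis, had 23.9 CPM in rich and 115 in poor progenitors of P2 MEIS2 1, 0 and 13.1 in P2 MEIS2 2, 0 and 9.79 in P5 MEIS2 1, and 0.668 and 14.1 in P5 MEIS2 2, on the scale of TMM-normalized CPM used for single genes from here on. With the GFP construct Ccnb1 ranged from 1.5 to 148 CPM in rich and from 0 to 157 in poor progenitors, with medians of 44.1 and 43.0. It was lower in the rich set of every MEIS2 library, with a log2 fold change of -2.42 ± 0.31 (SE, edgeR quasi-likelihood test with Benjamini-Hochberg adjusted p = 3.03e-05), against -0.19 ± 0.12 in the GFP libraries (adjusted p = 0.439). The difference between the constructs was -2.23 ± 0.34 (adjusted p = 0.000481).

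Cenpf, a protein of the outer kinetochore, stood at 50.8 and 282 CPM in rich and poor progenitors of P2 MEIS2 1, 27.8 and 45.7 in P2 MEIS2 2, 0 and 39.2 in P5 MEIS2 1, and 6.02 and 20.9 in P5 MEIS2 2. Among GFP libraries it ran from 3.75 to 531 CPM in rich cells and from 7.63 to 581 in poor ones, with medians of 133 and 130. Its log2 fold change was -2.39 ± 0.30 in the MEIS2 libraries (adjusted p = 2.03e-05) and -0.13 ± 0.12 in the GFP libraries (adjusted p = 0.669). Rich cells were lower than poor cells of the same library in all 4 MEIS2 libraries. Across libraries the rich and poor ranges overlapped in both constructs, 0 to 50.8 and 20.9 to 282 CPM with MEIS2, and almost fully with GFP.

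Mki67, whose product coats mitotic chromosomes, had 50.0 and 195 CPM in P2 MEIS2 1, 13.9 and 19.6 in P2 MEIS2 2, 0 and 36.7 in P5 MEIS2 1, and 2.01 and 20.9 in P5 MEIS2 2. It fell by 2.10 ± 0.30 on the log2 scale in the MEIS2 libraries (adjusted p = 8.41e-05), against 0.01 ± 0.13 in the GFP libraries. Hmgb2, a chromatin protein detected in both sets of all 4 libraries, had 584 and 1740 CPM, 78.7 and 157, 86.5 and 264, and 107 and 591 in the same order of libraries. Its log2 fold change was -1.84 ± 0.17 (adjusted p = 4.50e-07), against -0.04 ± 0.09 in the GFP libraries, and the difference was -1.81 ± 0.19 (adjusted p = 7.40e-06). Top2a, the topoisomerase that untangles chromosomes, fell by 1.60 ± 0.33 (adjusted p = 0.00532), from 381 to 127 CPM in P2 MEIS2 1 and from 137 to 111 in the shallow P2 MEIS2 2.

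The other members named here followed. Cdk1, the kinase partner of the B cyclins, changed by -1.77 ± 0.27 and Aurkb, the kinase of the chromosomal passenger complex, by -2.12 ± 0.37. Plk1, a kinase of spindle assembly, changed by -2.13 ± 0.37, Cdc20, the activator of the anaphase-promoting complex, by -2.80 ± 0.32, and Ccna2, cyclin A2, by -2.62 ± 0.32. Bub1, a checkpoint kinase of the kinetochore, changed by -2.62 ± 0.43 (adjusted p = 0.000605). Each of these was also called for the difference from the GFP libraries, at adjusted p-values of 6.47e-05 to 0.0229. Cdc20 missed the rule for the largest named falls, which asks for the same sign in every library and an average log2 CPM of 4. Kif11, the motor that separates the spindle poles, fell by 1.32 ± 0.30 in the MEIS2 libraries (adjusted p = 0.0123), was lower in 3 of 4 of them, and missed the threshold for the difference (-1.21 ± 0.33, adjusted p = 0.0557).

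The remaining 16 genes called of the list ran from -3.00 ± 0.37 for Ccnb2, another B cyclin, to -0.88 ± 0.15 for Cks1b, a small subunit of cyclin-dependent kinases, and each was called for the difference as well, at adjusted p-values up to 0.0476. At the centromere and kinetochore, Cenpa, the centromeric histone, changed by -2.63 ± 0.27, Nuf2 by -2.58 ± 0.47 and Cenpe, a motor, by -2.28 ± 0.32. On the spindle, Hmmr changed by -2.51 ± 0.33, Tpx2 by -2.14 ± 0.26, Aurka, the kinase that TPX2 activates, by -1.65 ± 0.33, Nusap1 by -1.89 ± 0.30, Tacc3 by -1.72 ± 0.30, Kif23 by -1.57 ± 0.28 and Ckap2 by -1.31 ± 0.26. Ube2c, which supplies ubiquitin to the anaphase-promoting complex, changed by -2.53 ± 0.36, Birc5, survivin, by -2.26 ± 0.29, Cks2 by -2.02 ± 0.22 and Smc4, a condensin subunit, by -1.30 ± 0.18. Of these 16, 8 were lower in the rich set of 4 of 4 MEIS2 libraries, Ube2c, Tacc3, Hmmr and Nuf2 had no UMI in either set of P2 MEIS2 2, and Ccnb2, Birc5, Nusap1 and Cenpa were higher in the rich set there. Anln and Gtse1 were the 2 not called, at -1.49 ± 0.45 and -1.78 ± 0.57 (adjusted p = 0.0722 and 0.0964).

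Several of the largest named falls were in genes outside the list. Dlgap5, a protein of spindle microtubules, had 7.56 CPM in rich and 50.2 in poor progenitors of P2 MEIS2 1, and 0 against 6.53, 7.34 and 7.40 in the other libraries. Its difference from the GFP libraries was -2.83 ± 0.42 (adjusted p = 0.000402). The differences of Cdca3, a trigger of mitotic entry, Pttg1, the securin that holds separase, and Melk, a kinase of dividing cells, were -2.54 ± 0.29, -2.34 ± 0.30 and -2.71 ± 0.46. Those of Mxd3, a MYC-network repressor, and Aspm, a spindle pole protein, were -2.37 ± 0.52 and -2.19 ± 0.47. In 4 of 4 MEIS2 libraries the rich set was lower for each of these, which the rule that named them required. The poor progenitors of P2 MEIS2 2 held 125110 UMIs in all, so values of a few CPM there rest on few UMIs.

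**Figure D3:**
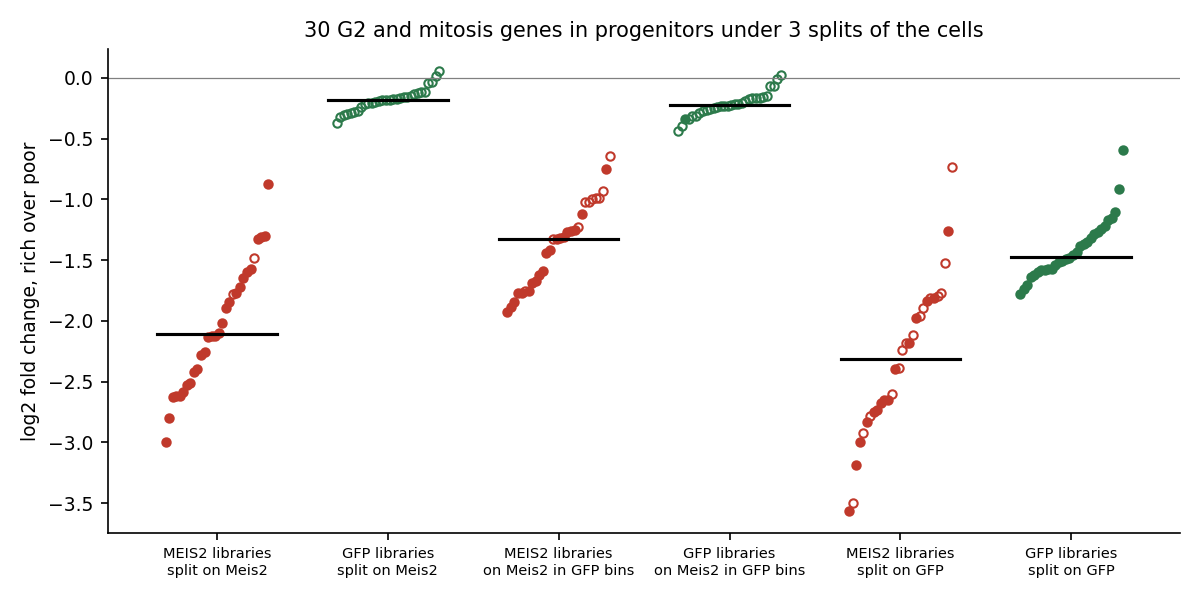
Log2 fold change of rich over poor progenitors for the 30 genes of the G2 and mitosis list, sorted within each column; filled circles passed an adjusted p of 0.05, open circles did not, and the black line is the median. Columns give the MEIS2 and GFP libraries with cells ranked by Meis2, by Meis2 within GFP bins, and by GFP. Medians are -2.11 and -0.18 for the ranking by Meis2, -1.32 and -0.22 within GFP bins, and -2.31 and -1.47 for the ranking by GFP.

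P2 MEIS2 1 decided many of these calls. Without it, 35 genes instead of 374 were called in the MEIS2 libraries and 22 instead of 224 for the difference, and of the list 2 of 30 and 1 of 30, while the medians were -2.55 and -2.40 and all 30 estimates were negative in both contrasts. The GFP libraries did show a smaller fall of the list under other choices of cells or libraries: 18 of 30 were called lower with cells ranked within 5 bins of depth (median -0.48), 16 without cells with amacrine UMIs (-0.38) and 13 in the P2 libraries alone (-0.32). Over all genes the GFP libraries then called 337 of 11721, 352 of 11377 and 508 of 12287 lower. The difference was called for 17, 21 and 26 of the 30 under these choices, beside 109, 103 and 161 of all genes with a negative difference. With each cell thinned to 1000 UMIs, which removes most UMIs of the deep libraries, 2 of 30 were called lower in the MEIS2 libraries and 2 for the difference.

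Because GFP moved with Meis2, the cells were also ranked by their GFP share in place of the Meis2 share. In the GFP libraries, where no construct carries Meis2, all 30 genes of the list were then lower in GFP-rich progenitors, with a median log2 fold change of -1.47, beside 6.36% of all 11826 genes called lower. Their summed level was 168 to 6414 CPM in GFP-rich cells, with a median of 875, and 576 to 10106 in GFP-poor cells, with a median of 4641, and the GFP-rich set was lower in 8 of 8 libraries. In the MEIS2 libraries the ranking by GFP called 15 of 30 lower, with a median of -2.31, beside 0.736% of all genes called lower. The difference between MEIS2 and GFP libraries under this ranking was called for 0 of 30 by edgeR, with 3 at an unadjusted p under 0.05 and a median of -0.90. Low mitotic levels in GFP-rich cells were therefore measured without a Meis2 plasmid as well, and how much of the difference between Meis2-rich and Meis2-poor cells goes with the amount of plasmid was not tested beyond the ranking that follows.

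Ranking by Meis2 within 3 bins of GFP level, an alternative added after the data were seen, narrowed the GFP difference between rich and poor progenitors without removing it: the log2 ratio of GFP in the MEIS2 libraries still exceeded that in the GFP libraries by 1.04 (exact permutation p = 0.00808). Under this ranking 19 of 30 genes of the list were called lower in the MEIS2 libraries, with a median of -1.32, against 1 of 30 and -0.22 in the GFP libraries. The difference was called for 5 of 30, with a median of -1.11. Of all 11651 genes, 86 were called lower in the MEIS2 libraries, 300 in the GFP libraries and 14 for the difference. The plot of the 30 genes under each ranking shows these values side by side.

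Fewer replication genes, which act earlier in the cycle, were called. Of 30 S phase genes tested, 6 fell in Meis2-rich progenitors of the MEIS2 libraries, none rose, and the median log2 fold change was -0.81, beside 2.09% of all genes called lower and a median of 0.00. Across the GFP libraries 0 of 30 were called by edgeR, 1 had an unadjusted p under 0.05, DESeq2 called 0, and the median was -0.01. The 6 were Rrm2 and Rrm1, the subunits of ribonucleotide reductase, Tyms, which makes thymidylate, Pcna, the sliding clamp of DNA polymerase, Nasp, a histone chaperone, and Tipin, a replication fork protein. The list summed to 1560 and 2304 CPM in rich and poor progenitors of P2 MEIS2 1, 542 and 703 in P2 MEIS2 2, 375 and 867 in P5 MEIS2 1, and 344 and 763 in P5 MEIS2 2. Rich cells were lower in each MEIS2 library, and in the GFP libraries they were higher in 4 of 8, with 387 to 1549 CPM against 295 to 1587.

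Tyms had 58.4 and 107 CPM in P2 MEIS2 1, 18.5 and 19.6 in P2 MEIS2 2, 13.3 and 41.6 in P5 MEIS2 1, and 20.1 and 59.9 in P5 MEIS2 2. Its fall of 1.09 ± 0.20 on the log2 scale (edgeR adjusted p = 0.00195) differed from the GFP libraries by -0.92 ± 0.23 (adjusted p = 0.032). Rrm2 and Pcna were also called for the difference, at -1.83 ± 0.38 and -0.95 ± 0.24, and each was lower in 3 of 4 MEIS2 libraries. These 3 of 30 stand beside 1.28% of all genes with a negative difference called. Nasp, Rrm1 and Tipin were not called for the difference, with adjusted p-values of 0.0896, 0.0761 and 0.118. The median difference of the 30 was -0.80 with cells ranked by Meis2. With cells ranked by GFP the median difference was 0.13, and 0 of 30 were called by edgeR, beside 1 of 11826 genes with a negative difference.

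The promoters of the genes that moved together were read from RefSeq on GRCm38.p6, the 250 bases before the start of each gene, and searched on both strands for CCAAT, which reads ATTGG on the other strand, and for TTTGAA, the core of the cell cycle homology element. The 4 sequences that follow belong to mitotic genes called in both contrasts and are shown because each holds more than 1 CCAAT box. They are written 5′ to 3′ along the gene, with the CCAAT or ATTGG in capitals. Cenpf lies at chr1:189688087-189688336 on the minus strand, Ccnb1 at chr13:100786487-100786736 on the minus strand, Aspm at chr1:139454523-139454772 on the plus strand, and Bub1 at chr2:127831860-127832109 on the minus strand.
Cenpf: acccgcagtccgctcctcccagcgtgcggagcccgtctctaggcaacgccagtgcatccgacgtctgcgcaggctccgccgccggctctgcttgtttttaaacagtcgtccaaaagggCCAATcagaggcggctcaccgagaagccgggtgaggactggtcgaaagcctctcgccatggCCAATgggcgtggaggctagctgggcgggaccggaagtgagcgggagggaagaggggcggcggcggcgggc
Ccnb1: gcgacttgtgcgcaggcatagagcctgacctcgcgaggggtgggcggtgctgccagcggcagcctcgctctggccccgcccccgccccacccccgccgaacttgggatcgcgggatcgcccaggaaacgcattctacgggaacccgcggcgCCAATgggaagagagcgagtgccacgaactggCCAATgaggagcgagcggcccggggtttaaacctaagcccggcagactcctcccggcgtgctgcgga
Aspm: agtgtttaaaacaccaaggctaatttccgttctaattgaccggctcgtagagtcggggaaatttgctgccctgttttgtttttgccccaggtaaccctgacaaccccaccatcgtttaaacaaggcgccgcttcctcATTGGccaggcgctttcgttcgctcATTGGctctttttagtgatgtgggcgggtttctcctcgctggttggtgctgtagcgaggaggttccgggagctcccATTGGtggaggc
Bub1: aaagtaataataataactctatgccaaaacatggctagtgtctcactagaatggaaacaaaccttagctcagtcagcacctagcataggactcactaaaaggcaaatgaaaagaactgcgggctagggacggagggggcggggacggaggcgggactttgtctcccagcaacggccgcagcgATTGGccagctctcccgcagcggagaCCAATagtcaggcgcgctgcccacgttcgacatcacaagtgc

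CCAAT matched in 21 of the 26 promoters of the G2 and mitosis list that are in the table (80.8%), against 37.5% of all 27025 promoters and 41.1% of the 9019 that belong to genes tested in progenitors. The homology element core matched in 10 of 26 (38.5%), against 18.3% of all promoters and 12.4% of those tested. In a window that also takes in the first 50 bases of the gene it matched in 17 of 26 (65.4%), against 20.2% of all promoters and 13.9% of those tested, and in 47 of the 107 with a negative difference (43.9%). Among the promoters of genes with a negative difference, 69 of 107 held CCAAT (64.5%) and 28 of 107 the homology element core (26.2%), and this set includes genes of the list. S phase genes held CCAAT in 16 of 24 (66.7%). On either strand TGACAG, a hexamer bound by MEIS proteins, matched in 7 of 56 promoters of genes with a positive difference (12.5%), 17 of 107 with a negative one (15.9%), and 15.9% of those tested. These matches describe the letters of this window and no binding was measured.

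Fewer genes rose than fell in Meis2-rich progenitors, 128 against 246. Amy1, an alpha-amylase, had 19.7 CPM in rich and 8.14 in poor cells of P2 MEIS2 1, 9.26 and 0 in P2 MEIS2 2, 17.7 and 4.90 in P5 MEIS2 1, and 14.7 and 6.05 in P5 MEIS2 2. It rose by 1.36 ± 0.27 on the log2 scale (edgeR adjusted p = 0.00377), against 0.03 ± 0.11 in the GFP libraries. Its rich and poor ranges in the MEIS2 libraries were separated only narrowly, with a lowest rich value of 9.26 CPM and a highest poor value of 8.14. The lowest rich value came from P2 MEIS2 2, whose rich set held 182578 UMIs in all, and so rests on few UMIs. The difference from the GFP libraries was 1.33 ± 0.30 (adjusted p = 0.0157).

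Adamts6, a secreted metalloprotease, had 89.5 and 33.9 CPM in P2 MEIS2 1, 37.0 and 32.6 in P2 MEIS2 2, 90.9 and 39.2 in P5 MEIS2 1, and 51.5 and 41.0 in P5 MEIS2 2. Tanc2, a scaffold protein of synapses, had 68.5 and 42.0, 64.8 and 52.2, 359 and 149, and 225 and 186 in the same order. Ndufa4l2, a mitochondrial protein known as a target of hypoxia signalling, had 173 and 112, 83.3 and 32.6, 104 and 2.45, and 88.9 and 13.5. Each was higher in the rich set of all 4 MEIS2 libraries, which the rule that named them required. The difference from the GFP libraries was 1.03 ± 0.22 for Adamts6 (adjusted p = 0.0101), 0.83 ± 0.14 for Tanc2 (adjusted p = 0.00133) and 1.51 ± 0.38 for Ndufa4l2 (adjusted p = 0.0332). Elmo1, an activator of Rac signalling, and Clcn5, a chloride-proton exchanger of endosomes, differed by 0.83 ± 0.17 and 0.87 ± 0.18. Without P2 MEIS2 1, Tanc2 and Ndufa4l2 were still called for the difference and Amy1, Adamts6, Elmo1 and Clcn5 were not.

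Some rises in the MEIS2 libraries were not shown to differ from the reference. Pfkp, a platelet-type phosphofructokinase of glycolysis, had 62.6 and 30.4 CPM in P2 MEIS2 1, 50.9 and 32.6 in P2 MEIS2 2, 180 and 58.8 in P5 MEIS2 1, and 62.2 and 56.5 in P5 MEIS2 2. It rose by 0.82 ± 0.21 (adjusted p = 0.0317), and its difference from the GFP libraries was 0.62 ± 0.25 (adjusted p = 0.251). Bnip3, a mitophagy receptor, rose by 0.92 ± 0.24 with a difference of 0.88 ± 0.27 (adjusted p = 0.0996). Slc8a3, a sodium-calcium exchanger, and Adamts12, a secreted metalloprotease, rose by 0.88 ± 0.23 and 0.81 ± 0.22, with adjusted p-values of 0.345 and 0.125 for the difference. Nrxn3, a presynaptic adhesion protein, rose by 0.66 ± 0.13 in the MEIS2 libraries and by 0.39 ± 0.08 in the GFP libraries (adjusted p = 0.00386 and 0.00494), and Tmem178b rose by 0.95 ± 0.15 and 0.41 ± 0.09 (adjusted p = 0.000416 and 0.00638).

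Of 10 TALE relatives and partners of MEIS2 tested in progenitors, 1 was called in the MEIS2 libraries, beside 3.18% of all genes, and the median log2 fold change of the 10 was -0.08. Meis1, the close relative of MEIS2, had 289 and 209 CPM in rich and poor progenitors of P2 MEIS2 1, 333 and 228 in P2 MEIS2 2, 328 and 284 in P5 MEIS2 1, and 171 and 217 in P5 MEIS2 2, and its change of 0.17 ± 0.10 did not pass the test (adjusted p = 0.454). Pbx4, a PBX partner, fell by 1.65 ± 0.44 (adjusted p = 0.0363) on levels of 26.6 CPM or less, and its difference of -1.58 ± 0.48 missed the threshold (adjusted p = 0.0998). Pbx2, Pbx3, Meis3, Pknox1, Pknox2, Tgif1 and Tgif2 had values between -0.64 and 0.45, none called.

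Photoreceptor genes rose with Meis2 in the reference and were not called in the MEIS2 libraries. In the reference libraries, where progenitors were ranked by endogenous Meis2, 14 of 17 photoreceptor genes rose in Meis2-rich cells, with a median log2 fold change of 1.41 beside -0.02 over all genes and 3.22% of all genes called higher. In the MEIS2 libraries 0 of 17 were called by edgeR and by DESeq2, 3 had an unadjusted p under 0.05, and the median was 0.64. The difference was called for 5 of the 17, beside 1.28% of all genes called with a negative difference, and each of the 5 was negative: Crx, Neurod1, Otx2, Prdm1 and Thrb, a thyroid hormone receptor of cones. Crx, a homeodomain factor of photoreceptor precursors, had 11.3 and 10.3 CPM in rich and poor cells of P2 MEIS2 1, 430 and 183 in P2 MEIS2 2, 13.3 and 19.6 in P5 MEIS2 1, and 2.67 and 2.69 in P5 MEIS2 2. With the GFP construct it had 5.07 to 104 CPM in rich cells, with a median of 32.8, and 1.67 to 18.7 in poor ones, with a median of 9.33.

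Crx was higher in the rich set in 8 of 8 GFP libraries and 2 of 4 MEIS2 libraries, with a log2 fold change of 2.19 ± 0.17 against 0.64 ± 0.33 and a difference of -1.56 ± 0.39 (edgeR adjusted p = 0.0344). The difference of Neurod1, a proneural factor of photoreceptor precursors, was -1.68 ± 0.33 (adjusted p = 0.00573), that of Otx2, which acts upstream of Crx, -1.49 ± 0.29 (adjusted p = 0.00573), and that of Prdm1, a repressor that favours rods over bipolar cells, -2.48 ± 0.44 (adjusted p = 0.00241). Thrb differed by -0.87 ± 0.23 (adjusted p = 0.0443). Neurod4, a proneural factor from the neurogenic list, differed by -1.87 ± 0.45 (adjusted p = 0.027). P2 MEIS2 2 had the highest levels of Crx among the MEIS2 libraries. Rod markers, from a separate list, summed to 116 and 9.95 CPM in rich and poor progenitors of P2 MEIS2 1, 750 and 544 in P2 MEIS2 2, 209 and 242 in P5 MEIS2 1, and 43.3 and 37.3 in P5 MEIS2 2. Among GFP libraries they were higher in the rich set in 8 of 8, with 68.2 to 332 CPM against 19.4 to 209. The part of rod RNA in these values was not tested. Without P2 MEIS2 1, the difference was called for 0 of the 17 photoreceptor genes by edgeR, with a median of -1.25 and 10 at an unadjusted p under 0.05. Without Scrublet doublets, 3 of the 16 tested rose in the GFP libraries, with a median of 0.76, where 44 of all genes were called higher. In the MEIS2 libraries 0 of these 16 were then called by edgeR, with a median of 0.18 and 2 at an unadjusted p under 0.05. The difference was called for 0 of the 16 by edgeR, with a median of -0.59 and 1 at an unadjusted p under 0.05. The part of doublets in the photoreceptor values was not tested further.

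Among neurogenic genes, 3 of 16 fell in Meis2-rich progenitors of the MEIS2 libraries and the median was -0.28, beside 2.09% of all genes called lower and a median of 0.00. Hes6, an antagonist of HES repressors, fell by 0.66 ± 0.16 (adjusted p = 0.0184) and Sox11, a factor of new neurons, by 0.64 ± 0.14 (adjusted p = 0.00955), each lower in 4 of 4 libraries. Neither was called for the difference, with adjusted p-values of 0.178 and 0.0753. Of the 16, 3 were called with a negative difference and none with a positive one, beside 1.28% of all genes. The median difference was -0.67, with 11 at an unadjusted p under 0.05 by edgeR. In the GFP libraries 3 of the 16 were called higher, beside 3.22% of all genes. With cells ranked by GFP the median difference was 0.18. Atoh7, the factor needed for ganglion cells, had 2.52 and 56.2 CPM in P2 MEIS2 1, 18.5 and 6.53 in P2 MEIS2 2, and 0 in both sets at P5. Its log2 fold change of -3.62 ± 0.57 (adjusted p = 0.000693) rests on P2 MEIS2 1 and was 1.42 without it. Foxn4, which promotes amacrine and horizontal fates, fell by 2.21 ± 0.39 (adjusted p = 0.0017), from 42.4 to 8.82 CPM in P2 MEIS2 1 on levels of 6.53 or less elsewhere.

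Of 12 Müller glia genes, 1 rose and 1 fell in Meis2-rich progenitors, while 2 were more positive and 1 more negative than in the GFP libraries. Over all genes 1.09% were called higher and 2.09% lower, and 0.629% and 1.28% for the difference. Apoe, a lipid carrier of Müller glia, had 1219 and 740 CPM in rich and poor progenitors of P2 MEIS2 1, 194 and 391.7 in P2 MEIS2 2, 7214 and 5244 in P5 MEIS2 1, and 8724 and 7417 in P5 MEIS2 2. It rose by 0.38 ± 0.10 (adjusted p = 0.0438), was higher in 3 of 4 libraries, and differed from the GFP libraries by 0.55 ± 0.12 (adjusted p = 0.0157). Spc25, a kinetochore protein that the glial list also holds, fell by 1.46 ± 0.25 (adjusted p = 0.000882), with a difference of -1.18 ± 0.27. Car14, a membrane carbonic anhydrase of Müller glia, was not called in the MEIS2 libraries (0.28 ± 0.10, adjusted p = 0.154) and differed by 0.45 ± 0.12 (adjusted p = 0.0399). The median of the 12 was 0.21 against -0.16 in the GFP libraries. For the difference it was 0.32, with 10 of 12 positive and 10 at an unadjusted p under 0.05, beside 0.01 and 1498 of 11756 over all genes. Without P2 MEIS2 1 none of the 12 was called for the difference by edgeR, with a median of 0.23 and 6 at an unadjusted p under 0.05, and with cells ranked by GFP none was called, with a median of -0.20 and 0 at an unadjusted p under 0.05. Summed markers of Müller glia were 2237 and 1489 CPM, 772 and 1239, 9556 and 7939, and 9972 and 8702 in rich and poor cells of the 4 libraries, higher in the rich set of all but P2 MEIS2 2. Progenitor markers were 5020 and 5157, 1829 and 2486, 3420 and 4231, and 4321 and 4895, lower in each. These markers include Mki67 and Top2a, which also belong to the G2 and mitosis list and fell with it. The sum without them was not computed, so a loss of other progenitor markers is not shown.

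Of 17 immediate early and stress genes, Junb, an AP-1 subunit, rose and Atf3, a stress-induced factor, fell, beside 1.09% of all genes called higher and 2.09% lower. Junb had 125 and 58.7 CPM, 74.1 and 52.2, 905 and 695, and 786 and 597 in rich and poor cells of the 4 libraries, a rise of 0.56 ± 0.12 (adjusted p = 0.00793) and a difference of 0.60 ± 0.14 (adjusted p = 0.027). Atf3 had 5.46 and 3.43, 41.7 and 117, 64.3 and 223, and 92.2 and 162, a fall of 1.02 ± 0.21 (adjusted p = 0.00479) with 3 of 4 libraries lower and a difference of -1.14 ± 0.24 (adjusted p = 0.0101). The list of p53 and cell death genes had 0 of 10 called by edgeR and 1 at an unadjusted p under 0.05. Late progenitor genes had 0 of 18 called, 5 at an unadjusted p under 0.05, and a median of 0.10. Notch genes had 0 of 15 called, 3 at an unadjusted p under 0.05, and a median of -0.21.

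Amacrine markers were higher in the progenitors of P2 MEIS2 2 than in those of the other MEIS2 libraries. The authors' amacrine cells of the MEIS2 libraries had 2301 CPM of these markers and 2722 CPM of Meis2. In rich and poor progenitors the markers summed to 34.4 and 49.8 CPM in P2 MEIS2 1, 345 and 184 in P2 MEIS2 2, 40.4 and 42.0 in P5 MEIS2 1, and 16.1 and 6.95 in P5 MEIS2 2, and to 11.5 to 121 in rich and 14.1 to 101 in poor progenitors of the GFP libraries. Leaving out cells with at least 2 amacrine UMIs left 28 of 30 G2 and mitosis genes called lower in the MEIS2 libraries, beside 202 of all 11377 genes, 16 of 30 in the GFP libraries and 21 of 30 for the difference. A fixed count of 2 UMIs is a higher level in a shallow cell than in a deep one. The cut was therefore least strict in P2 MEIS2 2, with a median of 1554 UMIs, and cannot settle the part of amacrine RNA there. Beside 1.09% of all genes called higher and 2.09% lower in the MEIS2 libraries, the remaining lists had 0 to 2 calls each: eye field and progenitor factors 0 of 12 with 1 at an unadjusted p under 0.05, early progenitor genes 2 of 15 lower, amacrine genes 1 of 13 lower, bipolar genes 0 of 5 with none at an unadjusted p under 0.05, and neuronal genes 2 of 12 higher, with medians from -0.11 to 0.29. The early progenitor genes called were Foxn4 and Sfrp2, a secreted WNT modulator, both lower, the amacrine gene was Foxn4 again, and the neuronal genes were Nrxn3 and Map1b, a microtubule protein, both higher.

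**Figure D4:**
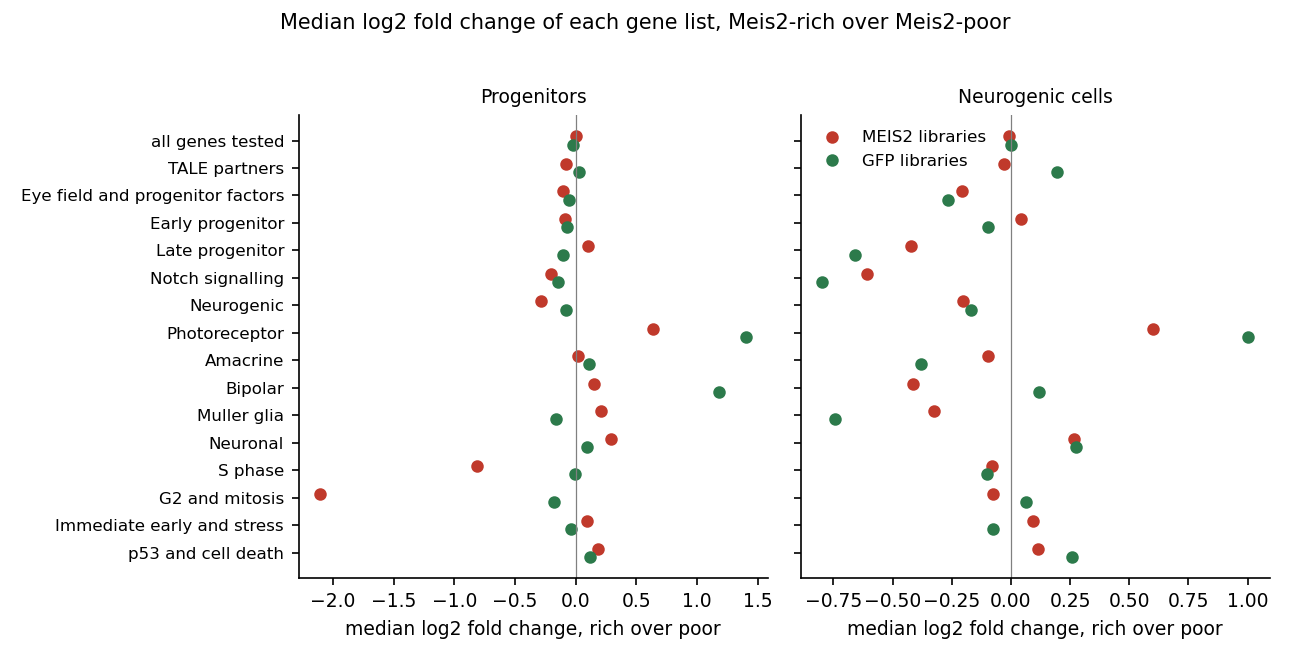
Median log2 fold change of Meis2-rich over Meis2-poor cells for each gene list and for all genes tested, in progenitors (left) and neurogenic cells (right), which have different horizontal scales; red is the MEIS2 and green the GFP libraries. The G2 and mitosis list in progenitors stands at -2.11 and -0.18, and the photoreceptor list in neurogenic cells at 0.60 and 1.00.

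In neurogenic cells, the genes that moved with Meis2 in the MEIS2 libraries were largely called in the GFP libraries too, where Meis2 is endogenous. The MEIS2 libraries called 170 of 10808 genes (1.57%), 105 higher in rich cells (0.972%) and 65 lower (0.601%), and the GFP libraries 2591 (24.0%), 1212 higher (11.2%) and 1379 lower (12.8%). The GFP libraries also called 89 of the 105 higher genes (84.8%, and 7.34% of their own 1212) and 61 of the 65 lower ones (93.8%, and 4.42% of their own 1379). In progenitors they called 8 of the 128 higher (6.25%, and 2.12% of their own 378) and 18 of the 246 lower (7.32%, and 5.20% of their own 346), in a reference that called 3.22% of genes higher and 2.94% lower. Of the 246 lower genes 219 had a negative value in the GFP libraries as well, with a median of -0.15 there against -1.33 in the MEIS2 libraries, and of the 128 higher genes 63 had a positive one. These overlaps were counted with doublets left in. Both call sets came from the same fit, with a shared estimate of the spread for each gene, so they are not independent. Without Scrublet doublets the GFP libraries called 48 progenitor genes in all. Across genes, Pearson's r between the log2 fold changes of the MEIS2 and the GFP libraries was 0.585 over 10808 genes in neurogenic cells and 0.241 over 11756 genes in progenitors, a description, since genes are not independent. The difference between constructs was called for 2 neurogenic genes (0.0185%), both positive, with 594 at an unadjusted p under 0.05. Without P2 MEIS2 1 the MEIS2 libraries called 5 genes.

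**Figure D5:**
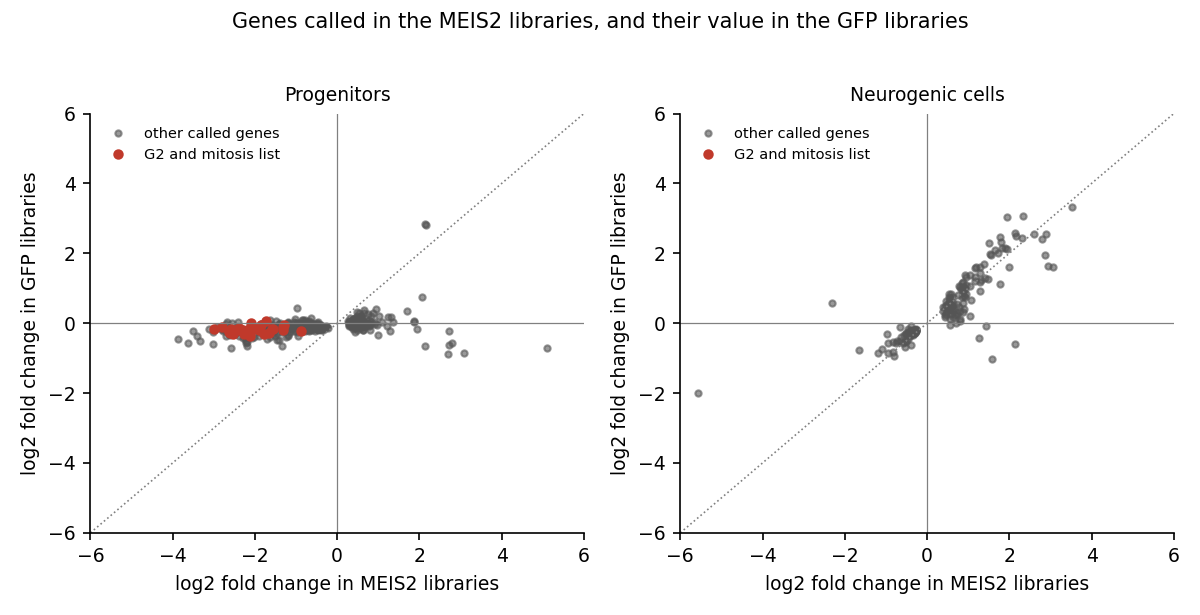
Log2 fold change of rich over poor cells in the MEIS2 libraries (horizontal) and in the GFP libraries (vertical) for each gene called in the MEIS2 libraries, GFP left out, in progenitors (left) and neurogenic cells (right); red marks the G2 and mitosis list and the dotted line equal values. Progenitor genes lie along the horizontal axis, and neurogenic genes near the dotted line, where 89 of 105 higher and 61 of 65 lower genes were called in both.

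The 7 rises in neurogenic cells given here were shared by both constructs. Angpt1, a secreted ligand of the TIE2 receptor, had 348 and 42.3 CPM in rich and poor cells of P2 MEIS2 1, 539 and 49.1 in P2 MEIS2 2, 53.6 and 8.98 in P5 MEIS2 1, and 23.8 and 5.40 in P5 MEIS2 2. In the GFP libraries it had 48.4 to 464 CPM in rich cells, with a median of 160, and 0 to 80.5 in poor ones, with a median of 35.1. It rose by 2.88 ± 0.40 in the MEIS2 libraries (edgeR adjusted p = 0.0018) and by 2.56 ± 0.22 in the GFP libraries, in each of the 12 libraries. The rule that named the 7 asked for the same sign in every library of a construct. Fhod3, a formin that assembles actin, rose by 1.81 ± 0.23 and 2.34 ± 0.14, and Adcy2, an adenylyl cyclase, by 2.14 ± 0.37 and 2.59 ± 0.23. Chgb, a protein of secretory granules, rose by 1.78 ± 0.28 and 2.46 ± 0.16, and Tenm1, an adhesion protein of synapses, by 2.79 ± 0.52 and 2.42 ± 0.29. Egflam, a matrix protein of photoreceptor synapses, rose by 2.30 ± 0.35 and 2.44 ± 0.20, and Tmem158 by 2.16 ± 0.32 and 2.48 ± 0.19. None of these 7 was called for the difference.

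Of 16 photoreceptor genes tested in neurogenic cells, 3 rose in the MEIS2 libraries, with a median of 0.60 and 0.972% of all genes called higher, and 12 in the GFP libraries, with a median of 1.00 and 11.2% of all genes called higher. Crx had 493 and 304 CPM in P2 MEIS2 1, 472 and 381 in P2 MEIS2 2, 288 and 166 in P5 MEIS2 1, and 167 and 127 in P5 MEIS2 2, a rise of 0.59 ± 0.11 (adjusted p = 0.0127), against 0.82 ± 0.07 in the GFP libraries. Neurod1 had 1700 and 977, 1360 and 983, 672 and 192, and 474 and 345 in the same order, a rise of 0.87 ± 0.17 (adjusted p = 0.0153), against 0.88 ± 0.11. Prdm1 rose by 1.17 ± 0.28 (adjusted p = 0.0378) and 1.33 ± 0.17. Rich cells were higher for these genes in 4 of 4 MEIS2 and 8 of 8 GFP libraries, and rod markers in the same sets summed to 56.7 and 29.8 CPM, 472 and 361, 411 and 238, and 31.6 and 29.5 in the MEIS2 libraries.

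Snap25, a protein of synaptic vesicle fusion, rose by 1.18 ± 0.19 (adjusted p = 0.00382) in neurogenic cells of the MEIS2 libraries and by 1.62 ± 0.12 in the GFP libraries. Nfib, a factor of late progenitors, rose by 0.85 ± 0.17 (adjusted p = 0.0178) and by 0.76 ± 0.11. Sox11 and Hes6 fell by 0.95 ± 0.20 and 0.57 ± 0.13 (adjusted p = 0.0213 and 0.0341), and by 0.86 ± 0.13 and 0.56 ± 0.08 in the GFP libraries. Among the largest falls shared by both constructs were Rad51b, a recombination repair protein, at -1.09 ± 0.22 and -0.73 ± 0.14, and Npm3, a histone chaperone, at -0.83 ± 0.17 and -0.55 ± 0.11. Crip2, Itm2a, Dnajc15, Nhs and Mrpl36 fell in both as well, with log2 fold changes of -1.19 to -0.72 in the MEIS2 libraries and -0.94 to -0.51 in the GFP libraries. Kctd16 and H1fx, a linker histone, fell in the MEIS2 libraries, at -2.32 ± 0.52 and -0.66 ± 0.14, and had 0.58 ± 0.30 and -0.11 ± 0.08 in the GFP libraries (not called), with adjusted p-values of 0.214 and 0.651 for the difference. Notch genes were not called in the MEIS2 libraries, 0 of 14 with 7 at an unadjusted p under 0.05 and a median of -0.61, while 10 of 14 fell in the GFP libraries, with a median of -0.80, where 12.8% of all genes were called lower. The 10 were the receptor Notch1, the ligands Dll1, Dll3 and Dll4, the targets Hes1, Hes5, Heyl and Nrarp, and the glycosyltransferases Mfng and Lfng, from -1.58 ± 0.32 for Heyl to -0.46 ± 0.11 for Notch1. No difference between the constructs was called for them.

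Meis1 rose in Meis2-rich neurogenic cells, from 186 to 248 CPM in P2 MEIS2 1, 184 to 191 in P2 MEIS2 2, 157 to 207 in P5 MEIS2 1 and 134 to 213 in P5 MEIS2 2. Its log2 fold change was 0.47 ± 0.11 (adjusted p = 0.0409), against 0.32 ± 0.07 in the GFP libraries (adjusted p = 0.00407). Pknox1, another TALE factor, rose by 0.73 ± 0.17 (adjusted p = 0.0365), with 0.22 ± 0.13 in the GFP libraries and a difference of 0.51 ± 0.21 (adjusted p = 0.849). The 8 other TALE genes were not called in the MEIS2 libraries. Ptf1a, a factor of amacrine and horizontal precursors, had 1.36 and 72.6 CPM in P2 MEIS2 1, 0 and 12.3 in P2 MEIS2 2, and 0 in both sets at P5. Its log2 fold change was -5.56 ± 0.74 in the MEIS2 libraries (adjusted p = 0.0026), a fitted value on sets without a UMI, and -2.0 ± 0.41 in the GFP libraries.

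Mitotic genes had no call in neurogenic cells of the MEIS2 libraries by edgeR. There 10 of the 30 genes of the list passed the filter, 1 was called by DESeq2, 4 had an unadjusted p under 0.05, and the median was -0.07. The difference between the cell types was not tested.

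Besides GFP, Pfkp was the gene whose rich-minus-poor value differed between the constructs in neurogenic cells. It had 28.5 and 26.0 CPM in rich and poor cells of P2 MEIS2 1, 89.9 and 61.4 in P2 MEIS2 2, 117 and 86.8 in P5 MEIS2 1, and 109 and 102 in P5 MEIS2 2. Across the GFP libraries it had 12.1 to 52.0 CPM in rich cells, with a median of 21.4, and 20.6 to 92.0 in poor ones, with a median of 56.8. Rich cells were lower in 8 of 8 GFP libraries, a fall of 1.08 ± 0.12 (adjusted p = 6.15e-06), and higher in 4 of 4 MEIS2 libraries by values that did not pass the test (0.21 ± 0.17, adjusted p = 0.565). The rule that named Pfkp here asked for the same sign in every MEIS2 library. The difference was 1.30 ± 0.21 (adjusted p = 0.0249). The call is fragile: the difference was 1.16 with another random order of cells with equal Meis2 share (adjusted p = 0.285), and it was lost without P2 MEIS2 1 (0.0989), P5 MEIS2 1 (0.197), P5 MEIS2 2 (0.123) or P2 GFP 1 (0.0675). Pfkp lies on the minus strand of chromosome 13 at 6579768 to 6648777 (mm10, GENCODE vM21). Its promoter is shown as the gene singled out by this test, at chr13:6648772-6649021 on the minus strand of GRCm38.p6, with its single ATTGG in capitals.
Pfkp: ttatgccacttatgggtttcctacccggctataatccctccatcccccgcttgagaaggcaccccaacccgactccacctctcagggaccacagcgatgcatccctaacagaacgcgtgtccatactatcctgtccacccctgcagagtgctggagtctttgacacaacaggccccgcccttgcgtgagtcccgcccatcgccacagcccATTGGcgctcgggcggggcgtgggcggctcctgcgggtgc

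The rich-minus-poor value of the MEIS2 libraries was compared between P5 and P2, with 2 libraries at each age. In progenitors 5 of 11756 genes were called (0.0425%), 2 with a more positive value at P5 (0.017%) and 3 with a more negative one (0.0255%). Kntc1, a kinetochore protein, and Cacna1a, a calcium channel subunit, had a more positive value at P5 by 4.41 ± 0.84 and 3.22 ± 0.43 (adjusted p = 0.042 and 0.000905). Sag, rod arrestin, Dmd, dystrophin, and Slc9a9, an endosomal exchanger, had a more negative one by -2.80 ± 0.48, -0.98 ± 0.17 and -1.79 ± 0.32. In neurogenic cells Pcdh17, a protocadherin, was more positive by 2.87 ± 0.43 and Kcnma1, a potassium channel, more negative by -3.30 ± 0.49 (adjusted p = 0.0152 for both), 2 of 10808 genes (0.0185%, and 0.00925% in each direction). These 7 genes were named after their values were seen. No gene of the G2 and mitosis or the S phase list was among them. For the S phase list the difference between the ages had a median of -1.23, with 25 of 30 negative and 14 at an unadjusted p under 0.05 by edgeR and 11 by DESeq2, neither of which called any, beside 925 of 11756 genes at an unadjusted p under 0.05 over all. Without P2 MEIS2 1 the median was -0.70, with 3 at an unadjusted p under 0.05. For the G2 and mitosis list it was -1.11, with 24 of 30 negative and 1 at an unadjusted p under 0.05. The median rich-minus-poor value of the G2 and mitosis list was -3.00 over 29 genes with the P5 libraries fitted alone, where 5 fell, and -1.97 over 30 with the P2 libraries alone, where 29 fell. Over all genes the 2 fits called 36 of 11081 and 287 of 12287 lower.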

How the data were processed

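Per the labels' protocols and the submitters' processing notes, the authors aligned 10x 3′ reads with Cell Ranger to mm10 with an added GFP locus and processed them with Seurat 5. The deposited values are raw UMI counts of 23260 genes in 79009 cells, with the authors' cell types, UMI counts and mitochondrial percent per cell. Of these, 57155 cells in 12 libraries were used and 21854 columns of cells were not. No deposited cell had fewer than 501 UMIs or more than 24.99% mitochondrial UMIs.

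Counts were summed per library, cell type and set, and tested with edgeR 4.0.16 in R 4.3.3 (filterByExpr, TMM, quasi-likelihood F-test, adjusted p under 0.05). The model had a library term, since the rich and the poor set of a library are a pair, and a split term per construct, over both ages. Only for the comparison of P5 with P2 was there a split term per construct and age. MEIS2 and GFP libraries were in the same fit per cell type. Meis2 was left out of the table tested. CPM scale counts to a common total, and single genes are on the TMM scale. Levels of GFP were compared as log2(CPM + 1) with exact permutation tests over libraries. Intervals between libraries are SD. SE were derived from the test, as the absolute log2 fold change divided by the square root of the F statistic, and are approximate.

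The rule for named genes took GFP, Meis1, the TALE list (1 item of it is not reported here), all called list members and, in each contrast, up to 10 rises and 10 falls among called genes whose average log2 CPM reached 4 and whose sign was the same in every library. Genes that the rule took from the GFP libraries alone, predicted gene models, and genes that were not called are mostly given by counts. The members and the 15 lists were chosen with earlier results of these data known.

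On simulated data with log2 changes of 1 and 2 in 100 genes each, the fit recovered 53 and 89 in the MEIS2 libraries for progenitors and 38 and 87 for neurogenic cells, and for the difference from the GFP libraries 44 and 83 of progenitors (11607 genes) and 22 and 76 of neurogenic cells (10624 genes). Of the genes left unchanged, 7 to 12 were called in these contrasts. Alternatives were DESeq2 1.42.0, other filters, splits, depths and libraries. Scrublet (scanpy 1.11.5) called 0% to 11.3% of cells doublets. It called almost none in P5 GFP 1 (1 of 6292), P2 GFP 2 (0 of 4712), P2 MEIS2 2 (1 of 1625) and P5 MEIS2 1 (2 of 2095). Whether its threshold failed in these libraries was not tested, and doublets were left in.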

Additional observations from a re-analysis of the deposited data

Results flagged for a closer look

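Depth, mitochondrial percent and GFP level were looked at in the groups of 4 GFP libraries, since 2 MEIS2 libraries per age are too few. Of the 12 sets of values, 2 had a library whose gap to the others passed Dixon's 95% critical value, which chance passes in about 1 of 20 sets. In neurogenic cells of P5 GFP 3 the log2 ratio of depth between rich and poor cells was 0.228, apart from the other P5 GFP libraries. In progenitors of P5 GFP 1 the mitochondrial percent of rich less poor cells was -0.712 points, below the other P5 GFP libraries.

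Values that differed between the MEIS2 and the GFP libraries by a test of the difference itself were the GFP level, by 2.83 on the log2 scale in progenitors and 2.32 in neurogenic cells, and 224 genes in progenitors and 2 in neurogenic cells by edgeR. The direction for GFP was set by the construct, which carries it on 1 transcript with Meis2. Between P5 and P2 the MEIS2 libraries differed in 5 genes in progenitors and 2 in neurogenic cells. The progenitor genes with a negative difference that were named were Dlgap5 at -2.83, Melk at -2.71, Cdca3 at -2.54, Bub1 at -2.38, Mxd3 at -2.37, Ccna2 at -2.34, Pttg1 at -2.34, Cenpf at -2.27, Ccnb1 at -2.23 and Aspm at -2.19. Those with a positive difference were GFP at 3.11, Ndufa4l2 at 1.51, Amy1 at 1.33, Pecr at 1.10, Adamts6 at 1.03, A730017C20Rik at 0.98, Clcn5 at 0.87, Elmo1 at 0.83, Tanc2 at 0.83 and Mmgt2 at 0.80. Pecr, an enzyme of fatty acid metabolism in peroxisomes, and Mmgt2, a magnesium transporter, were called for the difference and not in the MEIS2 libraries themselves. In neurogenic cells GFP differed by 2.49 and Pfkp by 1.30.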

How the results depend on the processing

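Counts of called genes depended strongly on the number of UMIs and on P2 MEIS2 1, and directions less so. In progenitors, 374 genes were called in the MEIS2 libraries, against 637 with no filter on low counts, 202 with a split at the median, 90 with at least 1 Meis2 UMI against none, 6 with cells thinned to 1000 UMIs, 116 with cells split on GFP, 137 with ranks within 3 GFP bins, 55 in P5 libraries alone, 95 with only the MEIS2 libraries in the fit and 0 without the replicate block. Leaving out 1 library gave 35 (without P2 MEIS2 1) to 429. The 724 of the GFP libraries became 430 with a median split, 10 thinned, 1397 split on GFP, 48 without Scrublet doublets, 39 at P5 and 0 without the replicate block, and 272 (without P2 GFP 1) to 858 leaving out 1 library. The 224 differences became 492 with no filter, 96 with a median split, 63 with any Meis2 UMI, 5 thinned, 7 split on GFP, 144 without cells with amacrine UMIs, 22 within GFP bins, 60 at P5 and 0 without the replicate block, and 22 (without P2 MEIS2 1) to 292 leaving out 1 library. Age differences, 5, became 8 by DESeq2, 68 with no filter and 0 thinned or without the replicate block, and 1 to 26 leaving out 1 library.

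Of the 30 G2 and mitosis genes, the 28 lower in the MEIS2 libraries became 12 with any Meis2 UMI, 2 thinned, 15 split on GFP, 5 at P5 and 0 without the replicate block, and 2 to 29 leaving out 1 library. The 27 differences became 13 with a median split, 10 with any Meis2 UMI, 17 within depth bins, 2 thinned, 0 split on GFP, 5 within GFP bins, 5 at P5 and 0 without the replicate block, and 1 to 29 leaving out 1 library. Any Meis2 UMI against none left 2 MEIS2 libraries with enough cells in both sets, P2 MEIS2 1 and P2 MEIS2 2 in progenitors and P2 MEIS2 2 and P5 MEIS2 2 in neurogenic cells. Thinning leaves fewer UMIs by construction, and dropping the block adds the spread between libraries to the error.

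In neurogenic cells, the 170 of the MEIS2 libraries became 346 by DESeq2, 603 with no filter, 25 with any Meis2 UMI, 106 with another order of ties, 310 within depth bins, 39 thinned, 74 with at least 2000 UMIs, 8 split on GFP, 87 without doublets, 596 within GFP bins, 1154 at P2, 2 at P5, 64 with only the MEIS2 libraries and 0 without the replicate block, and 5 (without P2 MEIS2 1) to 293 leaving out 1 library. The 2591 of the GFP libraries became 290 thinned, 158 split on GFP, 209 at P5 and 484 without the replicate block, and 1689 to 2648. The 2 differences became 4 by DESeq2, 120 with no filter, 18 with any Meis2 UMI and 41 at P2, 1 with a median split, other ties, depth bins, thinning, 2000 UMIs, no doublets, GFP bins or P5 alone, and 0 split on GFP or without the replicate block, and 1 to 6. Age differences, 2, became 7 by DESeq2, 97 with no filter, 4 within depth bins and 0 without the replicate block, and 0 to 7.

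The rich and the poor set of a library are the pair of the main fit. A replicate block on the split effect as well, by replicate number and age, gave 91 differences in progenitors and 30 in neurogenic cells. The number alone ties no library of 1 construct to 1 of the other.

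The GFP level differed by 2.83 in progenitors and 2.32 in neurogenic cells. It differed by 2.10 and 1.41 at P2 and 3.57 and 3.22 at P5, where the smallest exact permutation p is 0.0667, by 1.52 and 1.47 thinned, by 1.04 and 1.13 within GFP bins, by 1.42 in neurogenic cells with any Meis2 UMI, where the rich set was higher in 1 of 2 MEIS2 libraries (exact permutation p = 0.156), and by 2.5 to 3.46 and 1.94 to 2.85 leaving out 1 library. The depth difference, 0.082 in progenitors, was 0.19 without doublets (exact permutation p = 0.0424) and 0.022 to 0.13 leaving out 1 library, and 0.036 to 0.12 in neurogenic cells. The mitochondrial difference of -0.18 points in neurogenic cells was -0.21 within depth bins and -0.37 within GFP bins (exact permutation p = 0.0323 and 0.0283) and -0.25 to -0.11 leaving out 1 library, and -0.31 to 0.055 in progenitors.

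Single genes changed sign in 42 cases, and the cause was not tested. In progenitors of the MEIS2 libraries, any Meis2 UMI gave A730017C20Rik -0.094, Pcna 0.18, Sfrp2 0.11 and Tipin 0.021, thinning gave Tipin 0.69, and leaving out 1 library gave Atoh7 -4.42 (without P2 MEIS2 2) to 1.42 (without P2 MEIS2 1). In the GFP libraries, the split on GFP gave Crx -0.57, Neurod1 -0.81, Neurod4 -0.34, Nrl -0.56 and Snap25 -0.67. Among differences, the split on GFP gave Apoe -0.21 and Pcna 0.035, leaving out 1 library gave Atoh7 -3.86 to 1.98 in the same order, any Meis2 UMI gave Cdk1 0.078 and Pcna 0.13, P5 alone gave Neurod4 0.10, and thinning gave Otx2 0.087. In neurogenic cells of the MEIS2 libraries, the split on GFP gave Adcy2 -0.82, Angpt1 -0.49, Fhod3 -0.63, Meis1 -0.028, Neurod1 -0.036, Snap25 -0.047, Tenm1 -0.96 and Tmem158 -0.81, any Meis2 UMI gave Ptf1a 4.19 and Tenm1 -0.70, and thinning gave Synpr -0.60. In the GFP libraries it gave Adcy2 -0.55, Angpt1 -0.14, Chgb -0.41, Crx -0.13, Fhod3 -0.54, Meis1 -0.26, Neurod1 -0.17, Npm3 0.015, Pfkp 0.72, Snap25 -0.41, Synpr 1.17 and Tmem158 -0.11, each with cells split on GFP, and the Pfkp difference became -0.052.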

Other observations

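Ranking progenitors by GFP share also ordered other gene groups in the GFP libraries. Of 12 Müller glia genes, 8 were higher in GFP-rich progenitors and 1 was lower, with a median log2 fold change of 0.56, beside 5.45% of all genes called higher. Of 17 photoreceptor genes, 10 were lower, with a median of -0.69, and of 30 S phase genes 18 were lower, with a median of -0.56, beside 6.36% of all genes called lower. In the MEIS2 libraries the same ranking called 0 of the 12 Müller glia genes by edgeR, while 6 had an unadjusted p under 0.05 and the median was 0.33. It called 0 of the 30 S phase genes, while 6 had an unadjusted p under 0.05 and the median was -0.38. These values rest on the ranking by GFP, for which the GFP transcript itself was left out of the genes tested.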
